A study of Mus musculus with 12 samples.

Results

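The circadian clock genes described here are 10 genes, Arntl, Clock, Per1, Per2, Per3, Cry1, Ciart, Nr1d1, Nr1d2 and Dbp, chosen by name from the 54833 genes of the deposited table. All 10 had enough reads to be tested, beside 21495 tested genes in all, and 28 other clock genes were read next to them. Tissue came from the caudate putamen, the largest part of the striatum, of male WT C57BL/6 mice. In the ICH groups, collagenase, an enzyme that weakens vessel walls, had been infused to cause an intracerebral hemorrhage (ICH), and the sham groups had received the saline alone. Samples were collected 24 h after surgery, 3 per group, at 2 ages, so that the groups are sham and ICH in the young (8 to 10 weeks) and sham and ICH in the aged (20 to 22 months). No other allele, strain or agent distinguished the groups. Each sample pooled the tissue of 2 or 3 mice, and the spread is therefore one between pools, not between animals. The mice were housed under a light-dark cycle, and the clock time of surgery and of tissue collection was not given in the sources used here.

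The molecular clock is a feedback loop of transcription and translation that runs in almost every cell, striatal cells included. CLOCK and ARNTL (also called BMAL1) pair, bind E-boxes and switch on the Per and Cry genes, whose proteins return to the nucleus and block that pair. The same pair switches on Nr1d1 and Nr1d2 (REV-ERBα and REV-ERBβ), nuclear receptors that repress Arntl, and Dbp and Ciart. In a tissue with a running clock, Dbp and Nr1d1 transcripts peak at roughly the opposite time of day from Arntl transcripts. Single time points such as these cannot show a rhythm, only the level at collection.

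The promoters of 4 members are shown because each holds another of the elements by which the loop is wired. The sequences are RefSeq windows of 300 bases, from 250 bases before to 50 bases after a transcription start, in build GRCm38.p6 and on the strand of the gene. Windows were found for 9 of the 10 members, 13 windows in all. Capitals mark exact matches on either strand to the E-box CACGTG, its variant CACGTT, the D-box TTATGTAA, the AGGTCA core of the element read by NR1D1, NR1D2 and the ROR receptors, or the cAMP response element TGACGTCA, and the E-box and its variant differ at 1 letter and cannot overlap it.
Arntl, the activator, with an AGGTCA core 31 bases after the start (chr7:113207261-113207560, plus strand): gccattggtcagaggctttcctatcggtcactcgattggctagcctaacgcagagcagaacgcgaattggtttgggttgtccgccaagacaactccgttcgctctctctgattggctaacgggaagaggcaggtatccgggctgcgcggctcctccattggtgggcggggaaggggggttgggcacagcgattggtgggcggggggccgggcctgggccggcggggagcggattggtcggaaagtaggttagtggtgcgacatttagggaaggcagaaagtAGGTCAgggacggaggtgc
Ciart, a repressor, with 3 E-boxes 116, 58 and 44 bases before the start (chr3:95882179-95882478, minus strand): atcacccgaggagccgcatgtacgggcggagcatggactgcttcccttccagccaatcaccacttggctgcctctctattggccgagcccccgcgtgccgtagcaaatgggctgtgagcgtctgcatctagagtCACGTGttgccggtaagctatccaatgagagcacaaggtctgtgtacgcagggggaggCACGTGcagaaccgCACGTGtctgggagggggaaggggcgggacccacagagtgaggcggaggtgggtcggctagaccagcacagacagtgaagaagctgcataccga
Nr1d1, a repressor of Arntl, with the E-box variant 28 bases before the start, read on the other strand (chr11:98775328-98775627, minus strand): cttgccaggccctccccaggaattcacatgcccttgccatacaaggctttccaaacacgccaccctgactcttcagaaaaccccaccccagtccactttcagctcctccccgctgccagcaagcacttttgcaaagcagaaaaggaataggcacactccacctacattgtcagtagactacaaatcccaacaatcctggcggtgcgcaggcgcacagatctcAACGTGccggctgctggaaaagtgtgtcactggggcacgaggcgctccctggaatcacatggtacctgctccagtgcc
Per3, a Period gene, with 2 D-boxes 205 and 158 bases before the start (chr4:151044616-151044915, minus strand): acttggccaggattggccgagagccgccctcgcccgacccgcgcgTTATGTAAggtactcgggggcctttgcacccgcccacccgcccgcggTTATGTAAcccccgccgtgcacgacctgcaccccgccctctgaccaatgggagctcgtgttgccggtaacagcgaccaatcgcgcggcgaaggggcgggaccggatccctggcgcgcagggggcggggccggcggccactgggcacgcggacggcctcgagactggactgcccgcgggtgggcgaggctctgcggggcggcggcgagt
Among 32851 windows of the same length, 7.15% held the E-box, 4.68% its variant, 0.938% the D-box, 16.3% the AGGTCA core and 1.79% the cAMP response element. Windows of Cry1 and Per1 held 1 E-box each, those of Nr1d2, Clock and Per1 1 AGGTCA core each, and none of the 13 windows held TGACGTCA. The Cry1 window also held the E-box variant. Among the windows with none of these elements were that of Dbp and the other window of Arntl. These matches are letters only, since binding was not measured in these samples.

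All 10 genes are protein-coding. In GRCm38 coordinates of GENCODE vM21, Arntl lies at chr7:113207465-113314126, Clock at chr5:76209868-76304792, Per1 at chr11:69095217-69109960, Per2 at chr1:91415982-91459324 and Per3 at chr4:151003652-151044665. Cry1 lies at chr10:85131700-85185064, Ciart at chr3:95878503-95882251, Nr1d1 at chr11:98767932-98775333, Nr1d2 at chr14:18204054-18239127 and Dbp at chr7:45705088-45710203. Exons of Dbp share 539 bases, 18% of its exon length, with Sphk2 on the opposite strand, and exons of Nr1d1 share 263 bases, 8.55%, with Thra on the opposite strand. Arntl shares 33 bases, 0.439%, with Gm45355. The strand setting of the counting was not given in the sources used here, so reads over the shared bases could not be assigned to one gene, and the values of Dbp and Nr1d1 are uncertain to that extent.

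Between 28410896 and 37785160 reads were counted on genes per sample, and the members drew from 400 (Ciart) to 6300 (Nr1d2) reads in a sample. Markers of striatal neurons, such as Drd1, Drd2 and Ppp1r1b, were present in all 12 samples, with a sum over the list of 102 to 805 FPKM. RNA of striatal neurons was thus in every sample, but at widely different levels. In markers of the choroid plexus, the tissue that makes cerebrospinal fluid, 3 ICH libraries stood apart, with sums of 3202 FPKM in young ICH replicate 3, 1241 in aged ICH replicate 1 and 1586 in aged ICH replicate 2, against at most 346 in the other 9. Fold changes and tests below were also computed without these 3 libraries, which left replicate 3 as the only aged ICH sample. Aged ICH values of that setting therefore rest on that library. Marker sums, overlaps between groups and the lists of genes most like a member used all 12 samples. Correlations between members were recomputed without young ICH replicate 3 only.

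The members were expressed at moderate levels in every sample. By FPKM, which divides reads by transcript length and so allows levels of different genes to be compared, the order of the 12-sample means was Nr1d2 (31.4), Nr1d1 (28.4), Per1 (20.1), Dbp (12.6), Per2 (9.53), Ciart (9.42), Per3 (8.96), Clock (8.10), Cry1 (6.41) and Arntl (4.51). Between Per1, at 16.8 FPKM in its lowest sample, and Dbp, at 15.6 FPKM in its highest, there was a gap, while every other pair of neighbours in this order overlapped in range. By these means the REV-ERB genes were the most abundant members and Arntl the least abundant. Within one gene, the highest sample exceeded the lowest by 1.36 times (Per1) to 1.97 times (Ciart) on the CPM scale, which is reads scaled to the normalized library size.

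None of the 10 members was a differentially expressed gene (DEG) in any comparison. A gene was called a DEG at FC > 1.5 or FC < 0.67 when its P before adjustment was also under 0.05, and by this criterion 3.72% of the tested genes were DEGs in aged sham vs. young sham, 12.2% in young ICH vs. young sham, 10.1% in aged ICH vs. aged sham, 3.52% in aged ICH vs. young ICH and 1.56% for the interaction, which is the response to ICH in aged mice minus that in young mice. The median absolute log2FC of the members was 0.20 in young ICH vs. young sham and 0.17 in aged ICH vs. aged sham, beside 0.24 and 0.21 over all tested genes. It was 0.09 between the sham groups and 0.11 between the ICH groups, beside 0.14 and 0.13 over all tested genes.

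The 95% intervals of the fold changes bound what could have been missed. They lay wholly between 0.67 and 1.5 for 10 of 10 members in both comparisons of aged with young mice, for 9 of 10 in young ICH vs. young sham, where Per2 was the exception with a fold of 0.774 (95% interval 0.630 to 0.951), and for 9 of 10 in aged ICH vs. aged sham, where Dbp was the exception with 0.777 (0.612 to 0.987). For the interaction the intervals of Per1, Per2, Dbp and Ciart reached past a limit. A change of 1.5 times was therefore outside the interval for most members at this depth and replication, but smaller changes were not.

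**Figure D1:**
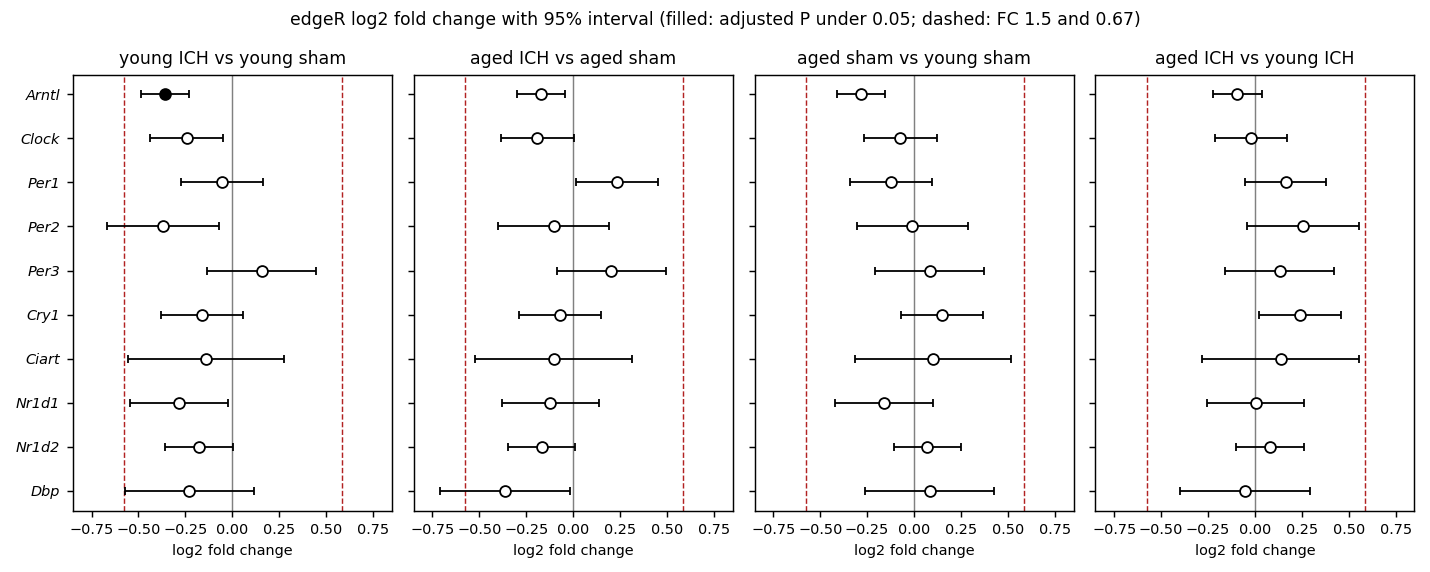
Log2 fold changes of the 10 clock genes (x axis, log2 units, with 95% intervals from edgeR) in 4 comparisons, with dashed lines at FC 1.5 and 0.67 and filled points where the adjusted P was under 0.05. Every point lies between the dashed lines, and the only filled one is Arntl in young ICH vs. young sham at −0.36.

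Arntl, the activating partner of CLOCK, was the one member with an adjusted P under 0.05 within an age, where it fell in young ICH vs. young sham. It was at 39.7, 42.6 and 40.2 CPM in young sham, 33.4, 30.7 and 31.4 in young ICH, 33.4, 34.0 and 33.4 in aged sham, and 31.1, 29.8 and 28.7 in aged ICH. Every ICH sample was below every sham sample of the same age, and every aged sham sample was below every young sham sample. From a mean of 40.8 ± 1.58 CPM (SD, n = 3) in young sham to 31.8 ± 1.39 in young ICH, its log2FC was −0.36 ± 0.06 (SE, adjusted P = 0.00303 by edgeR's quasi-likelihood test), a fold of 0.780 (95% interval 0.714 to 0.853). An adjusted P under 0.05 was found for 19.1% of all tested genes in that comparison, so Arntl was one of many with such a value. It stayed under 0.05 in all 21 alternatives, which gave log2FC values from −0.39 to −0.22.

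In aged mice the Arntl difference did not pass after adjustment. The mean of Arntl was 33.6 ± 0.305 CPM in aged sham and 29.9 ± 1.20 in aged ICH, with a log2FC of −0.17 ± 0.06 (adjusted P = 0.0806). Its unadjusted P was 0.05 or above without aged ICH replicate 3, with library totals as the only scaling, without a filter on low counts, and on log2 FPKM. The sham groups differed by a log2FC of −0.28 ± 0.06 (adjusted P = 0.129), with the unadjusted P under 0.05 in 21 of 21 alternatives and the adjusted P under 0.05 in DESeq2 alone. Between the ICH groups the log2FC was −0.09 ± 0.06 (adjusted P = 0.657), and the groups overlapped.

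Markers of several cell types moved with the ICH groups, and so with Arntl. The summed FPKM of 10 neuron markers was 1317 to 1489 in young sham, 1017 to 1267 in young ICH, 1280 to 1360 in aged sham and, for aged ICH, 1102 to 1204, with all 10 markers below 0 in log2FC at either age and 4 of them (young) and 1 (aged) under an adjusted P of 0.05. Sums of 9 striatal neuron markers overlapped between sham and ICH, at 463 to 805 FPKM in young sham, 135 to 526 in young ICH, 411 to 746 in aged sham and, for aged ICH, 102 to 595. All 9 were nevertheless below 0 in log2FC at either age, with medians of −0.95 (young) and −1.13 (aged). At either age 0 of them passed after adjustment. Sums over 8 astrocyte markers went from 732–747 to 1017–1155 FPKM in young and from 732–894 to 1035–1110 in aged mice. Of these markers, 6 were above and 2 below 0 in log2FC at either age, with medians of 0.43 (young) and 0.21 (aged). For 8 monocyte and macrophage markers the sums went from 20.7–23.8 to 64.8–97.5 FPKM in young and from 23.0–60.5 to 91.5–106 in aged mice. Oligodendrocyte markers had a median log2FC of 0.11 in young mice, with 0 of 7 passing after adjustment, and of −0.34 in aged mice, with 3 of 7 passing, each lower. Of 7 endothelial markers, 5 passed in young (median 0.64) and 4 in aged mice (0.45), and of 8 neutrophil markers, 6 passed in young (3.08) and 5 in aged mice (1.82). In bulk tissue, fewer cells that express a gene and less RNA of that gene per cell cannot be told apart, and the part of the cell mix in the values of the clock genes was not tested.

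Clock, the partner of ARNTL, was at 113.5, 137.6 and 117.6 CPM in young sham, 100.7, 104.8 and 106.0 in young ICH, 120.2, 105.4 and 125.1 in aged sham, and 97.9, 112.0 and 97.3 in aged ICH. The young groups did not overlap and the aged groups did. The log2FC was −0.24 ± 0.09 in young mice (adjusted P = 0.0755) and −0.19 ± 0.09 in aged mice (adjusted P = 0.178), so neither passed after adjustment. Without young sham replicate 2, the highest sample, the value in young mice was −0.16 (adjusted P = 0.282).

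**Figure D2:**
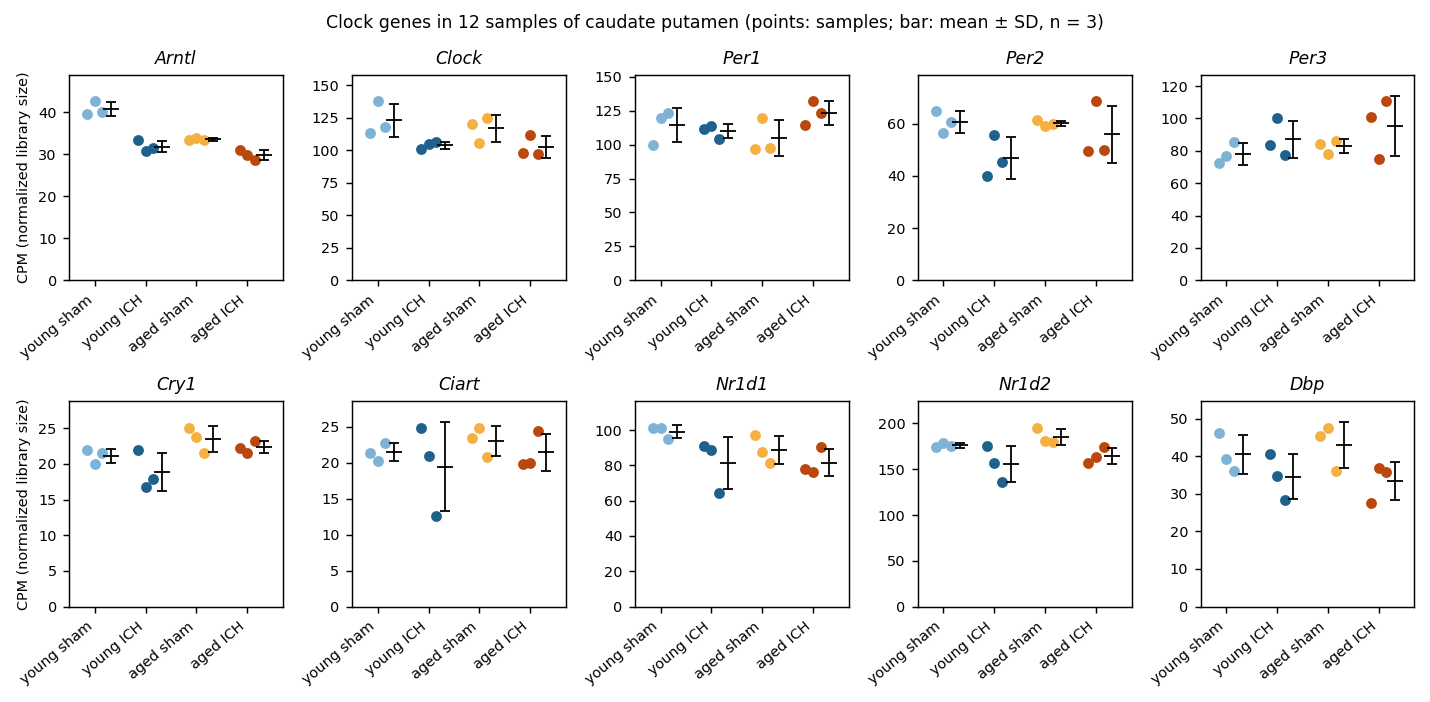
CPM of each clock gene (y axis, from 0) in the 12 samples by group (x axis), with points for samples and a bar for the mean ± SD (n = 3). Arntl is the gene whose sham and ICH samples separate at both ages, while most other members overlap between groups.

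The Period genes, the repressors that accumulate with each cycle, did not move as a set. Per2 was at 64.8, 56.3 and 60.6 CPM in young sham and at 39.8, 55.6 and 45.3 in young ICH, with no overlap and a log2FC of −0.37 ± 0.14 (adjusted P = 0.0786). In aged mice it was at 61.3, 59.2 and 60.1 CPM in sham and at 49.5, 68.6 and 49.9 in ICH, where replicate 2 lay above and replicates 1 and 3 below every sham sample, and the log2FC was −0.10 ± 0.14 (adjusted P = 0.656). The Per2 difference in young mice had an adjusted P under 0.05 in 3 of 21 alternatives and an unadjusted P of 0.05 or above in 5.

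Per1, the member that light and stress hormones induce fastest, was at 99.9, 119.7 and 123.3 CPM in young sham, 111.8, 113.9 and 104.5 in young ICH, 97.1, 120.0 and 97.5 in aged sham, and 114.6, 132.0 and 123.2 in aged ICH. Its log2FC was −0.05 ± 0.10 in young mice (adjusted P = 0.744) and 0.23 ± 0.10 in aged mice (adjusted P = 0.147), and sham and ICH overlapped at both ages. The interaction was 0.29 ± 0.14 with an unadjusted P above 0.05, so a difference between the ages was not shown. Every aged ICH sample was above every young ICH sample, by 0.16 ± 0.10 on the log2 scale (adjusted P = 0.643).

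Per3 was at 72.3, 76.8 and 85.5 CPM in young sham, 83.9, 99.99 and 77.7 in young ICH, 84.3, 78.0 and 86.3 in aged sham, and 100.7, 75.1 and 110.6 in aged ICH. Groups overlapped in every comparison, and the log2FC was 0.16 ± 0.13 in young (adjusted P = 0.447) and 0.20 ± 0.13 in aged mice (adjusted P = 0.340). Per3 was the only member with a positive log2FC after ICH at both ages, but neither value was distinguished from 0.

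Cry1, the partner of the PER proteins in repression, was at 21.9, 20.0 and 21.5 CPM in young sham, 21.9, 16.8 and 17.9 in young ICH, 25.1, 23.8 and 21.5 in aged sham, and 22.2, 21.6 and 23.2 in aged ICH. The response to ICH was −0.16 ± 0.10 in young (adjusted P = 0.284) and −0.07 ± 0.10 in aged mice (adjusted P = 0.684). Aged ICH was higher than young ICH by a log2FC of 0.24 ± 0.10 (adjusted P = 0.480), and these groups overlapped. Ciart, which represses the CLOCK and ARNTL pair, was the most variable member, at 21.4, 20.2 and 22.7 CPM in young sham, 24.8, 21.0 and 12.6 in young ICH, 23.4, 24.8 and 20.8 in aged sham, and 19.8, 20.0 and 24.4 in aged ICH. Its values in young ICH spread from below to above all sham samples of that age, and its log2FC was −0.14 ± 0.19 in young and −0.10 ± 0.19 in aged mice (adjusted P = 0.654 and 0.762).

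The REV-ERB genes had log2FC values below 0 at both ages, and neither gene passed after adjustment within an age with all 12 samples. Nr1d1 was at 101.4, 101.2 and 94.8 CPM in young sham, 90.8, 88.8 and 64.6 in young ICH, 97.0, 87.7 and 81.5 in aged sham, and 78.0, 76.5 and 90.1 in aged ICH. The young groups did not overlap, with replicate 3 of young ICH far below the rest, and the log2FC was −0.28 ± 0.12 (adjusted P = 0.117), with −0.14 without that replicate (adjusted P = 0.321). In aged mice it was −0.12 ± 0.12 (adjusted P = 0.541). Without the 3 libraries of high choroid plexus markers, where aged ICH was replicate 3 alone, it was 0.03. Nr1d2 was at 174.1, 178.8 and 175.4 CPM in young sham, 174.9, 156.7 and 135.6 in young ICH, 195.4, 180.6 and 179.3 in aged sham, and 157.1, 163.0 and 174.0 in aged ICH. For Nr1d2 it was the aged groups that did not overlap, and the log2FC was −0.18 ± 0.08 in young (adjusted P = 0.158) and −0.17 ± 0.08 in aged mice (adjusted P = 0.204). Single libraries moved the young value of Nr1d2 both ways, to −0.27 without young ICH replicate 1 (adjusted P = 0.0389) and to −0.09 without replicate 3 (adjusted P = 0.456).

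Dbp, a transcription factor whose transcript follows the activity of the CLOCK and ARNTL pair closely, was at 46.2, 39.2 and 36.1 CPM in young sham, 40.6, 34.7 and 28.4 in young ICH, 45.3, 47.6 and 35.9 in aged sham, and 27.5, 36.8 and 35.9 in aged ICH. Groups overlapped at both ages. The log2FC was −0.23 ± 0.16 in young (adjusted P = 0.338) and −0.36 ± 0.16 in aged mice (adjusted P = 0.152). The young value ranged from −0.36 without young ICH replicate 1 to −0.11 without replicate 3, and the aged value was −0.24 without aged ICH replicate 1.

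Counted over the 10 members, sham and ICH samples did not overlap for 4 in young mice (Arntl, Clock, Per2 and Nr1d1), where 35% of the tested genes did not overlap, and for 2 in aged mice (Arntl and Nr1d2), where 35.1% did not. The log2FC was below 0 for 9 of 10 members in young mice, with a median of −0.20, and for 8 of 10 in aged mice, with a median of −0.11, beside medians of 0.02 and 0.00 over all tested genes. The exceptions were Per3 at both ages and Per1 in aged mice. Unadjusted P was under 0.05 for 4 members in young mice (33.2% of tested genes), for 3 in aged mice (28.9%), for 1 between the sham groups (12.3%), for 1 between the ICH groups (9.54%) and for 1 in the interaction (2.82%). After adjustment it was Arntl in young mice alone, and none of the members between the sham groups (0.102% of tested genes), between the ICH groups (0.0558%), in the aged comparison (13.2%) or in the interaction (0%). Between the sham groups 2 members did not overlap (21% of tested genes), Arntl being lower and Nr1d2 higher in aged mice, and between the ICH groups 1 did not (13.3%), which was Per1. The share of members with such a difference was thus near or below that of the tested genes in most of these comparisons.

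Because the members' values after ICH were similar in direction at both ages, the mean response over both ages was also computed, a contrast chosen after seeing the data. No member was a DEG in it, beside 12.4% of the tested genes, and 6 had an unadjusted P under 0.05, beside 43.2%. The adjusted P was under 0.05 for 3 members, beside 32.4% of the tested genes. These were Arntl (log2FC −0.26 ± 0.04, adjusted P = 7.65e-04), Clock (−0.22 ± 0.06, adjusted P = 0.0199) and Nr1d2 (−0.17 ± 0.06, adjusted P = 0.0406). Arntl held in 20 of 20 alternatives. Clock held in 15. It did not hold without aged ICH replicate 1 (adjusted P = 0.0512) or replicate 3 (just above 0.05), with library totals only (0.117) or on log2 FPKM (0.145). The remaining loss was without the 3 libraries of high choroid plexus markers, where aged ICH was replicate 3 alone. Nr1d2 held in only 5 of 20 alternatives, and its log2FC in that setting was −0.08. For the mean age difference over both surgeries, no member passed after adjustment, the nearest being Arntl at −0.19 ± 0.04 (adjusted P = 0.0542), beside 1.27% of the tested genes that did. No member was a DEG there, beside 3.55%, and 2 had an unadjusted P under 0.05, beside 18.3%.

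Of the 28 other clock genes, the 10 transcription factors of the loop and its side branches included Npas2, the paralog of Clock that also pairs with ARNTL. Npas2 fell in both young and aged mice, from 60.8–63.9 CPM in young sham to 44.4–48.2 in young ICH and from 48.6–55.4 in aged sham to 34.7–44.2 in aged ICH. Sham and ICH samples did not overlap at either age, and the log2FC was −0.45 ± 0.09 (adjusted P = 0.00611) and −0.46 ± 0.09 (adjusted P = 0.00971). The adjusted P stayed under 0.05 in 21 of 21 alternatives in young and 20 of 21 in aged mice. Cry2, the other cryptochrome, was lower by a log2FC of −0.23 ± 0.07 in young mice (adjusted P = 0.0434, under 0.05 in 6 of 21 alternatives) and −0.19 ± 0.07 in aged mice (adjusted P = 0.101).

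Of the repressors in the list, 3 had a higher level after ICH that passed after adjustment at 1 age, though not in all alternatives. Bhlhe40, which competes with CLOCK and ARNTL for E-boxes, was at 94.8 to 135 CPM in young sham and 134 to 169 in young ICH (log2FC 0.36 ± 0.12, adjusted P = 0.0599), and at 124 to 137 in aged sham and 159 to 186 in aged ICH (0.41 ± 0.12, adjusted P = 0.0438). Its paralog Bhlhe41 differed by 0.36 ± 0.11 in young (adjusted P = 0.0475) and 0.28 ± 0.11 in aged mice (adjusted P = 0.130). Nfil3, which competes with DBP for D-boxes, was the one DEG of the list in aged mice, rising from 5.06–7.07 CPM in aged sham to 9.58–10.0 in aged ICH (0.63 ± 0.17, adjusted P = 0.0346), and its log2FC in young mice was 0.31 ± 0.17 (adjusted P = 0.229). Without aged sham replicate 2, or on log2 FPKM, Nfil3 was no longer a DEG. The adjusted P was under 0.05 in 12 of 21 alternatives for Bhlhe40 in aged mice, in 7 of 21 for Bhlhe41 in young mice and in 15 of 21 for Nfil3 in aged mice, and the replicate block was among the settings that lost Bhlhe40 and Bhlhe41.

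The 9 enzymes that modify PER and CRY proteins included Btrc, the F-box protein by which PER proteins are sent for degradation. Btrc fell from 93.5–103 CPM in young sham to 60.1–66.1 in young ICH (log2FC −0.62 ± 0.06, adjusted P = 7.42e-04), which made it a DEG, and from 84.8–89.6 in aged sham to 60.9–69.1 in aged ICH (−0.43 ± 0.06, adjusted P = 0.00485), which did not. In young mice Btrc was no DEG with library totals only or on log2 FPKM, and over the alternatives the value nearest 0 was −0.44, while its adjusted P stayed under 0.05 in 21 of 21 alternatives. Gsk3b, a kinase with CRY2 and NR1D1 among its clock substrates, fell from 308–329 to 233–241 CPM in young and from 297–330 to 230.0–249 in aged mice (−0.43 ± 0.06 and −0.40 ± 0.06, adjusted P = 0.00169 and 0.00463). Usp7, a deubiquitinase, had a log2FC of −0.26 ± 0.06 in young mice (adjusted P = 0.0122) and −0.17 ± 0.06 in aged mice (adjusted P = 0.0788). The other 6 enzymes, the casein kinases among them, did not pass after adjustment at either age, and the list's median log2FC was −0.20 in young and −0.17 in aged mice. Btrc and Gsk3b have roles in many pathways outside the clock.

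Of 9 genes known as clock outputs or partners, Tspan4 and Timeless were DEGs at both ages. Tspan4, a membrane protein, went from 13.7–14.0 to 31.7–35.2 CPM in young (log2FC 1.25 ± 0.15, adjusted P = 0.00108) and from 12.7–20.8 to 34.6–41.6 in aged mice (1.19 ± 0.14, adjusted P = 0.00310). Timeless, which in mammals also protects replication forks, went from 8.04–9.64 to 12.8–13.9 CPM in young (0.61 ± 0.16, adjusted P = 0.0228) and from 6.47–10.0 to 13.0–16.9 in aged mice (0.81 ± 0.16, adjusted P = 0.0106), and in young mice it was no longer a DEG when replicate 1 of either group was left out or on log2 FPKM, the last also holding in aged mice. Por and Pik3ip1 were higher in young mice (0.28 ± 0.07 and 0.43 ± 0.10, adjusted P = 0.0192 and 0.0153), with 0.21 ± 0.07 and 0.25 ± 0.10 in aged mice (adjusted P = 0.0714 and 0.136). The remaining 5 did not pass after adjustment at either age.

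Over all 28 of these genes, DEGs numbered 3 in young ICH vs. young sham (12.2% of tested genes) and 3 in aged ICH vs. aged sham (10.1%) by edgeR's test, and 0 between the sham groups, between the ICH groups and for the interaction, where DESeq2 also called 0. By adjusted P, 10 of 28 passed in young and 7 of 28 in aged mice, beside 19.1% and 13.2% of all tested genes. At an unadjusted P under 0.05 there were 15 of the 28 in young and 13 in aged mice after ICH, beside 33.2% and 28.9% of the tested genes. There were 3 between the sham groups, 2 between the ICH groups and 0 for the interaction, beside 12.3%, 9.54% and 2.82% of the tested genes.

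**Figure D3:**
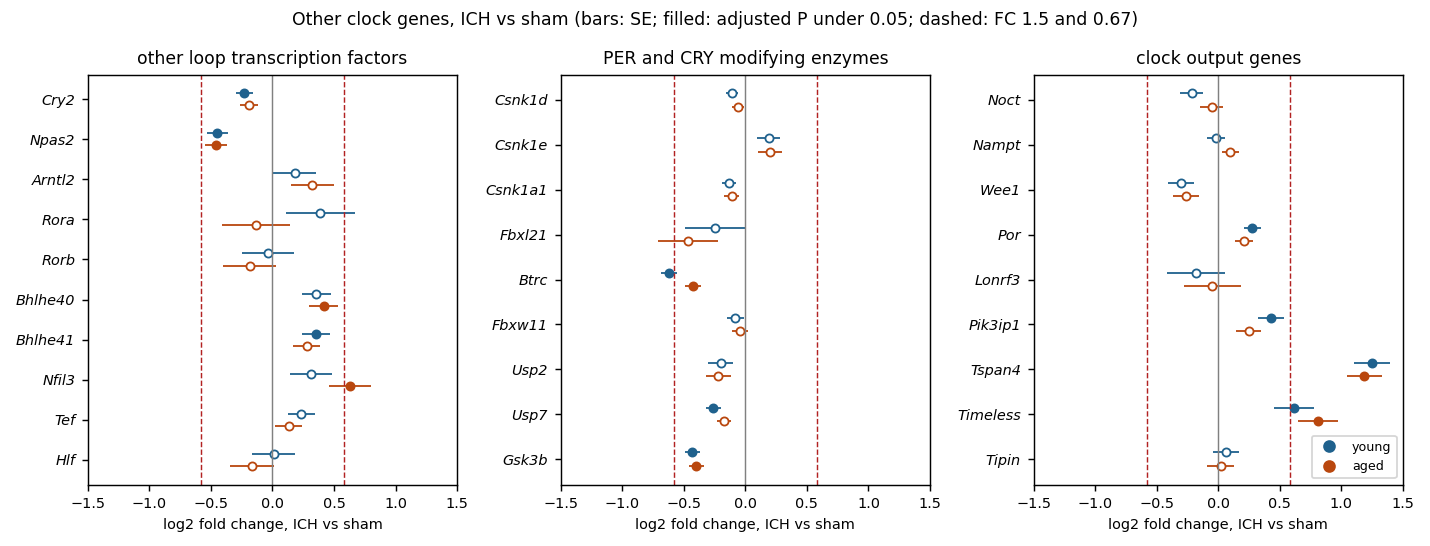
Log2 fold changes after ICH (x axis, log2 units, bars for SE) of the 28 other clock genes in young (blue) and aged (orange) mice, with dashed lines at FC 1.5 and 0.67 and filled points where the adjusted P was under 0.05. Tspan4 lies furthest to the right at 1.25 and 1.19, and Btrc in young mice is the only point past the lower line.

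Genes of 2 signals that reach Per1 and other members from outside the loop were read beside them. Of 8 genes induced by glucocorticoids, which also reach Per1, Fkbp5 and Pdk4 were DEGs in young mice and rose, beside 12.2% of the tested genes. At either age 6 of the 8 were above and 2 below 0 in log2FC after ICH, with medians of 0.39 (young) and 0.27 (aged). After adjustment 3 passed in young and 2 in aged mice, beside 19.1% and 13.2% of the tested genes. Fkbp5, a chaperone of the glucocorticoid receptor, went from 55.1–74.3 CPM in young sham to 91.5–130.2 in young ICH (log2FC 0.72 ± 0.15, adjusted P = 0.00757) and differed by 0.45 ± 0.15 in aged mice (adjusted P = 0.0667). Without young ICH replicate 1 it was no DEG. Pdk4, a kinase that restrains glucose oxidation, rose by 1.11 ± 0.16 in young (adjusted P = 0.00201) and 0.75 ± 0.16 in aged mice (adjusted P = 0.0138). The aged value was 0.48 without the 3 libraries of high choroid plexus markers, where aged ICH was replicate 3 alone. Tsc22d3, also called GILZ, spanned 104 to 154 CPM over the young ICH samples and 73.0 to 83.9 over the aged ones. That made it a DEG between the ICH groups (3.52% of the tested genes), with the call lost without young ICH replicate 1. Over those groups all 8 genes of the list were below 0 in log2FC, with a median of −0.26, beside −0.005 over all tested genes.

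Of 9 immediate early genes, which neuronal activity and CREB signaling induce along with Per1, 5 were DEGs in young ICH vs. young sham, each of them lower in young ICH, beside 12.2% of the tested genes. The other 4 were above 0 in log2FC there, so the list did not fall as a whole. In aged ICH vs. aged sham 6 of the 9 were above and 3 below 0. Npas4, which depends on neuronal activity, fell from 28.9–54.8 CPM in young sham to 12.8–14.7 in young ICH (log2FC −1.495 ± 0.27, adjusted P = 0.00400). Egr1 fell by 1.09 on the log2 scale (SE 0.21, adjusted P = 0.00514) and Nr4a1 by 1.24 (SE 0.29, adjusted P = 0.0122), while Arc (−0.96 ± 0.36, adjusted P = 0.0829) and Fosb (−0.63 ± 0.26, adjusted P = 0.117) did not pass after adjustment and lost the DEG call in 5 of 21 alternatives each, young ICH replicate 1 and young sham replicate 3 being libraries whose omission ended both. In aged mice the DEGs were Npas4 (−0.82 ± 0.26, adjusted P = 0.0639) and Fos (0.78 ± 0.28, adjusted P = 0.0914), beside 10.1% of the tested genes. Fos was no longer a DEG without aged ICH replicate 2. For the interaction all 9 were above 0 in log2FC, but 0 of 9 had an unadjusted P under 0.05, beside 2.82% of the tested genes. Egr1, Arc and Npas4 were also DEGs in aged sham vs. young sham (3.72% of the tested genes), at −0.65 ± 0.20, −0.84 ± 0.36 and −0.74 ± 0.26 (adjusted P = 0.249, 0.375 and 0.290). Each of these 3 calls was lost without young sham replicate 3, the sample in which Egr1, Nr4a1 and Npas4 were highest. Per1 itself had a log2FC of −0.05 ± 0.10 in young ICH vs. young sham.

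Within groups, Nr1d1, Nr1d2, Ciart and Dbp varied together from sample to sample, a set of members chosen after the values were seen. After subtracting the mean log2 CPM of each group, Nr1d1 and Nr1d2 had a Pearson r of 0.91 over the 12 samples, Nr1d1 and Ciart 0.88, and Nr1d2 and Ciart 0.89, while Dbp had 0.67 to 0.69 with these 3. Spearman's rho was 0.83, 0.85 and 0.78 for the first 3 pairs and 0.55 to 0.66 for those with Dbp. Other members that CLOCK and ARNTL switch on differed in this, since Cry1 had r of 0.46 to 0.62 with the same 4 genes, while Per1, Per2 and Per3 had r of −0.24 to 0.45. Arntl had r of −0.06 to 0.18 with them. Outside the members, Cry2 had r of 0.76 to 0.87 with the 4 genes, and Tef, another listed transcription factor, 0.70 to 0.91. The pattern was thus not particular to these 4. One library bore much of it, since young ICH replicate 3 was the lowest of all 12 samples in Nr1d1, Nr1d2 and Ciart and the lowest of its group in Dbp. That library had the highest choroid plexus sum and the lowest sum of neuron markers (1017 FPKM) of the 12. Without it, the r values were 0.74, 0.59 and 0.67, and 0.53 to 0.55 for Dbp, while Cry1 had 0.49 to 0.76 and the Per genes −0.54 to 0.28 with the 4. The 12 points share tissue, library preparation and pooling, and these values are a description without a test.

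**Figure D4:**
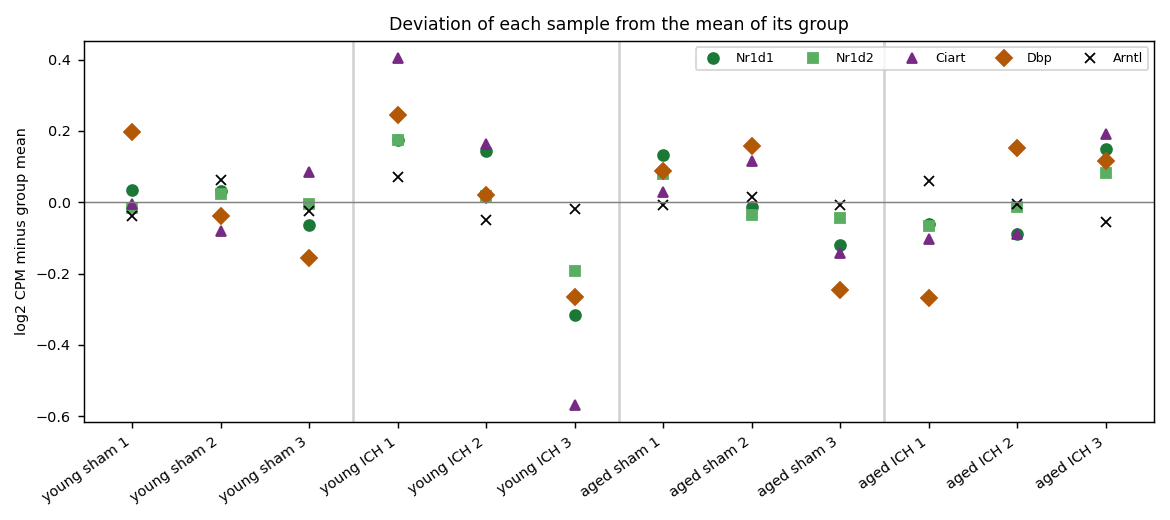
Deviation of each sample from its group mean in log2 CPM (y axis) for Nr1d1, Nr1d2, Ciart, Dbp and Arntl in the 12 samples (x axis, group and replicate). Nr1d1, Nr1d2, Ciart and Dbp lie together below 0 in young ICH replicate 3, while the crosses of Arntl stay near 0 in all samples.

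By the same measure over 16823 genes, no clock gene was among the 20 genes most like any of the 10 members. The 5 most like Dbp were Bsdc1, Lhfpl4, Gprasp1, Ets2 and Nxph1, with r from 0.957 to 0.972. Those most like Arntl were Cactin, Gm3531, Tbcc, Mrpl12 and Jchain, with r from 0.886 to 0.919. With 12 samples, the highest of so many correlations is large for any gene, and these are given as a description only.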

How the data were processed

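RNA of perihematomal tissue from 12 pooled samples in 4 groups, assigned by their labels, had been sequenced. The authors aligned reads to GRCm38.p6 with Hisat2 and counted them with FeatureCounts, and deposited, in one table, each gene's raw counts and FPKM, to which all 12 samples could be assigned. FPKM are divided by transcript length and mapped fragments. The strand setting and the handling of multi-mapped reads were not given in the sources used here. Columns with fold changes or P values of the authors were not used.

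Tests on the deposited counts used edgeR 4.0.16 in R 4.3.3 (quasi-likelihood F test, with limma 3.58.1), TMM scaling, filterByExpr with a minimum count of 10 and all 12 samples in one fit of 4 groups. The DEG criterion of the study was kept (FC above 1.5 or below 0.67 with P under 0.05 before adjustment), and P values were adjusted by Benjamini and Hochberg over 21495 genes. SE was derived from log2FC and F. Log2 CPM has a prior count of 2. The script was tested on simulated data. The labels call the samples biological replicates, and the tests set group differences against the spread between pools.

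The members, the lists of other clock, glucocorticoid, immediate early and cell type marker genes and the tests were chosen with earlier results of these data known. Of the list genes, 2 are not reported here and entered no list count. The named genes are all 10 members, genes of the clock, glucocorticoid and immediate early lists that were DEGs in at least 1 comparison, Tef (chosen after its correlations were seen), and the 5 genes most like Dbp and Arntl. Other clock genes with an adjusted P under 0.05 within an age were also named, chosen after their values were seen. Of the cell type markers only examples were named. Not every list gene that passed after adjustment was named. Alternatives were DESeq2 1.42.0, RLE factors, library totals, no filter, a minimum count of 50, only the 2 groups compared, limma on log2(FPKM + 1), a replicate block, adjusted P and leaving out each sample. The 2 mean contrasts, the analysis without 3 libraries and the correlations without 1 library were added after seeing the data.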

Additional observations from a re-analysis of the deposited data

Results flagged for a closer look

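The response of Arntl to ICH differed between ages by an unadjusted test. The interaction log2FC was 0.19 ± 0.08 (SE, unadjusted P under 0.05 by edgeR's quasi-likelihood test), from −0.36 in young mice to −0.17 in aged mice, all 3 ICH samples being below all 3 sham samples at each age. The adjusted P was 0.9999, and 2.82% of the 21495 tested genes had an interaction P under 0.05, with 0 under 0.05 after adjustment. Among the alternatives, 6 of 20 had a P under 0.05. Without the 3 libraries of high choroid plexus markers, where aged ICH was replicate 3 alone, the value was 0.13. Aged sham was already below young sham, at 33.6 against 40.8 CPM, and the ICH groups were at 29.9 and 31.8 CPM.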

How the results depend on the processing

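Of 1510 values of single members under 22 alternatives, 1506 kept their side of the DEG criterion and their direction where called, none reversed, and 4 passed only because adjusted P replaced the FC limits (Arntl in young ICH, and Arntl, Clock and Nr1d2 in the mean response over both ages). No alternative with FC limits made a member a DEG. With the criterion of adjusted P, 1 member passed in young ICH and 3 in the mean response. Signs changed in 56 values that passed in no setting.

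The count of other clock genes moved more. Between the sham groups it was 0 in every setting. In young ICH it was 3, with 1 on log2 FPKM, 2 with library totals only, 10 by adjusted P and 2 to 4 when leaving out a sample. In aged ICH it was 3, with 1 on log2 FPKM, 7 by adjusted P and 2 to 4 when leaving out a sample. Without the 3 libraries of high choroid plexus markers, aged ICH was replicate 3 alone, so no count is given. Between the ICH groups it was 0, and 0 to 1 when leaving out a sample (Rora without young ICH replicate 2). In the mean response it was 2 of 28 (12.4% of the tested genes), with 1 on log2 FPKM. By adjusted P it was 16 of 28 in the mean response (32.4% of the tested genes). In the mean age difference it was 0 in every setting. The causes were not tested, except that the criterion of adjusted P has no FC limit. On the log2(FPKM + 1) scale, changes of low genes are understated.

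With library totals alone, the median log2FC of all tested genes in young ICH moved from 0.02 to 0.11, and Arntl there was at −0.27 (adjusted P = 0.00981). Replicate numbers did not pair the samples. Same-numbered samples of different groups had correlations of deviations from −0.56 to 0.33, above 0.1 in 6 of 18 pairs, and with the replicate block the count of members was 0 in every comparison. Depth behind the members was 400 reads or more in every sample.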
